A study of Mus musculus with 6 samples.

Results

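Chaperones and the proteases that work with them were followed in brown adipose tissue (BAT) of mice that lack the soluble form of the IL-33 receptor. The set held 35 genes, chosen by gene symbol from the 35976 rows of the count table, and every one was found in it. They fell into 10 cytosolic and nuclear heat shock genes, 2 cold-inducible RNA-binding genes, 16 genes of the endoplasmic reticulum (ER) folding machinery and its control, and 7 mitochondrial chaperones and proteases. All 35 passed the filter on low counts, so none was left out. The smallest counts in any library were those of Hspa1b and Hspa1a, 34 and 38 in WT replicate 3.

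RNA-seq was performed on BAT of 3 sST2-KO mice and 3 wild-type (WT) littermates, all male, on the C57BL/6J background and 10 weeks old. In sST2-KO mice CRISPR/Cas9 had removed an intron of Il1rl1 that carries the end of the transcript for soluble ST2 (sST2), a secreted decoy receptor for IL-33. The deletion was not driven in 1 tissue, so cells outside BAT lacked sST2 too. The sympathetic nerves of BAT had been cut in all 6 mice, and all had spent 8 h at 10 °C, so no sample stands for intact nerves or for warmth. The comparison asked what the loss of sST2 does to BAT in the cold when its nerve supply is gone. Values of single libraries are given below in the order of replicates 1, 2 and 3. The WT libraries held 19, 19 and 6 counts of Il1rl1, against 55, 69 and 142 in the sST2-KO libraries. A count over the whole gene cannot tell sST2 from the membrane receptor ST2L, so it does not check the deletion. Total counts ran from 8159442 to 12874809 per library, and the 35 genes took 0.825% to 1.08% of them.

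The libraries differed in markers of cell types as well as by genotype. The brown adipocyte list (12 genes) had none higher and 6 lower by the test described below, and its summed level ran from 20589 to 30392 normalized CPM in WT and from 4840 to 10054 in sST2-KO. Ucp1, the uncoupling protein that defines brown fat, was between 5229 and 10522 normalized CPM in WT and between 153 and 1042 in sST2-KO. T cell markers summed to 19.7 to 23.7 normalized CPM in WT and 161 to 200 in sST2-KO, and 9 of 10 were called higher. Of the 6 neutrophil markers 3 were called higher, of the 10 macrophage markers 2, and of the 7 endothelial markers 1 was higher and 1 lower, while none of 6 fibroblast markers was called. Skeletal muscle genes summed to 6.41 to 1250 in WT and 3479 to 14955 in sST2-KO, with none of 8 called, and all 8 proliferation genes were called higher. WT replicate 2 stood apart by liver genes, at 4986 normalized CPM against 9.48 to 48.6 elsewhere, and sST2-KO replicate 3 by macrophage markers, at 6765 against 892 to 1697. In bulk tissue, fewer cells of a type and less RNA per cell cannot be told apart. The part of these differences in the results was not tested.

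Chaperones bind unfolded protein and hold, fold or hand it on, and each compartment of the cell has its own relatives of the HSP70 and HSP90 families. Cytosolic heat shock genes are induced by the transcription factor HSF1. The unfolded protein response of the ER induces ER chaperones through ATF6, XBP1 and the kinase PERK. Mitochondria import nearly all their proteins unfolded, so brown fat, which is packed with mitochondria, depends on the mitochondrial HSP70, HSP60 and HSP10 to fold them and on LONP1 and CLPP to degrade those that fail.

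The start regions of the genes were searched for the elements of these responses, and the matches are shown because the letters of these elements belong to the ER and heat shock responses. The ER stress response element (ERSE, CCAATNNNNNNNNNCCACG on either strand) is the sequence bound by NF-Y together with ATF6 or XBP1. Windows from 250 bases before to 50 after the transcript start were taken from RefSeq's mouse promoters (GRCm38.p6) and placed on GRCm39 by exact match. Of the 35 genes, 27 had such a window, and Hsp90aa1, Hsf1, Manf, Hspa8, Hyou1, Hsp90ab1, Rbm3 and Hspa9 had none in the table. An ERSE was present in 39 of 32851 windows of all genes (0.119%) and in 7 of the 14 ER genes that had a window. In each line the 19 bases are read along the gene, with the fixed letters in capitals. In Calr, Creld2 and the second site of Hsp90b1 they are the reverse complement of the element.
Hspa5, chr2:34662037-34662055, plus strand: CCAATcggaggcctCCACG
Hsp90b1, chr10:86541502-86541520, minus strand: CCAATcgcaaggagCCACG
Hsp90b1, chr10:86541397-86541415, minus strand: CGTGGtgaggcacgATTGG
Calr, chr8:85573704-85573722, minus strand: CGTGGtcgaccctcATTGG
Canx, chr11:50216627-50216645, minus strand: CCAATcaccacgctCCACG
Pdia6, chr12:17316492-17316510, plus strand: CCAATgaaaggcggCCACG
Dnajc3, chr14:119175239-119175257, plus strand: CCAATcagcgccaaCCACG
Creld2, chr15:88703723-88703741, plus strand: CGTGGcgagcctcaATTGG

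Herpud1 alone among the 27 genes carried the related ERSE-II (ATTGG and CCACG with 1 base between them), found in 12 of the 32851 windows (0.0365%).
Herpud1, chr8:95113005-95113015, plus strand: ATTGGgCCACG

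The Hspa5 site lay 65 to 47 bases before the RefSeq start. It is shown here within the 200 bases before that start, chr2:34661902-34662101 on the plus strand of GRCm39.
Hspa5, 200 bases before the start: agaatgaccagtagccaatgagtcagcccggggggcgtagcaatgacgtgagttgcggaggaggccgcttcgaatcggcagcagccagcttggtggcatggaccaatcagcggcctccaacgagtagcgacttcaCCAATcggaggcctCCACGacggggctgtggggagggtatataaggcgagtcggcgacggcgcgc

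Hspd1 and Hspe1, which encode mitochondrial HSP60 and its lid HSP10, lie head to head on chromosome 1. Hspd1 runs from 55116994 to 55127183 on the minus strand and Hspe1 from 55127291 to 55130466 on the plus strand, so the 107 bases between them (chr1:55127184-55127290, plus strand) serve as the start of both. A heat shock element (GAANNTTCNNGAA or TTCNNGAANNTTC), the sequence bound by HSF1, lay in this stretch as 2 overlapping matches that are shown in capitals. The element was found in 198 of the 32851 windows (0.603%), and besides Hspd1 and Hspe1 only Hsph1 held it among the 27 genes. The search allowed no mismatch in the fixed letters, so a gene without a match may still hold a less exact element.
Hspd1 to Hspe1, 107 bases: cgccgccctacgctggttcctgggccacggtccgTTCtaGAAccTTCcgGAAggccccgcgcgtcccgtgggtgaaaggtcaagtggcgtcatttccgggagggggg

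Transcripts of the mitochondrial group were lower in sST2-KO BAT, those of part of the ER group were higher, and the cytosolic group had no gene past the test. At an adjusted p under 0.05 (quasi-likelihood test of edgeR, Benjamini-Hochberg over all 14542 genes tested), 5 of the 35 genes rose (Rbm3, Pdia4, Xbp1, Sdf2l1 and Manf) and 4 fell (Hspd1, Hspe1, Hspa9 and Clpp). Of all genes tested, 10.5% were called higher and 9.10% lower by the same rule. As counts over the whole set both are close to these background shares. The rises were ER genes apart from Rbm3, and the falls were all mitochondrial, but no test compared the compartments, and DESeq2 also called the cytosolic Hspa1a and Hspa1b higher and the ER gene Dnajb9 lower. The median log2 fold change was -0.16 over the cytosolic genes, 0.50 over the ER genes and -1.14 over the mitochondrial genes, beside 0.03 over all genes tested.

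**Figure D1:**
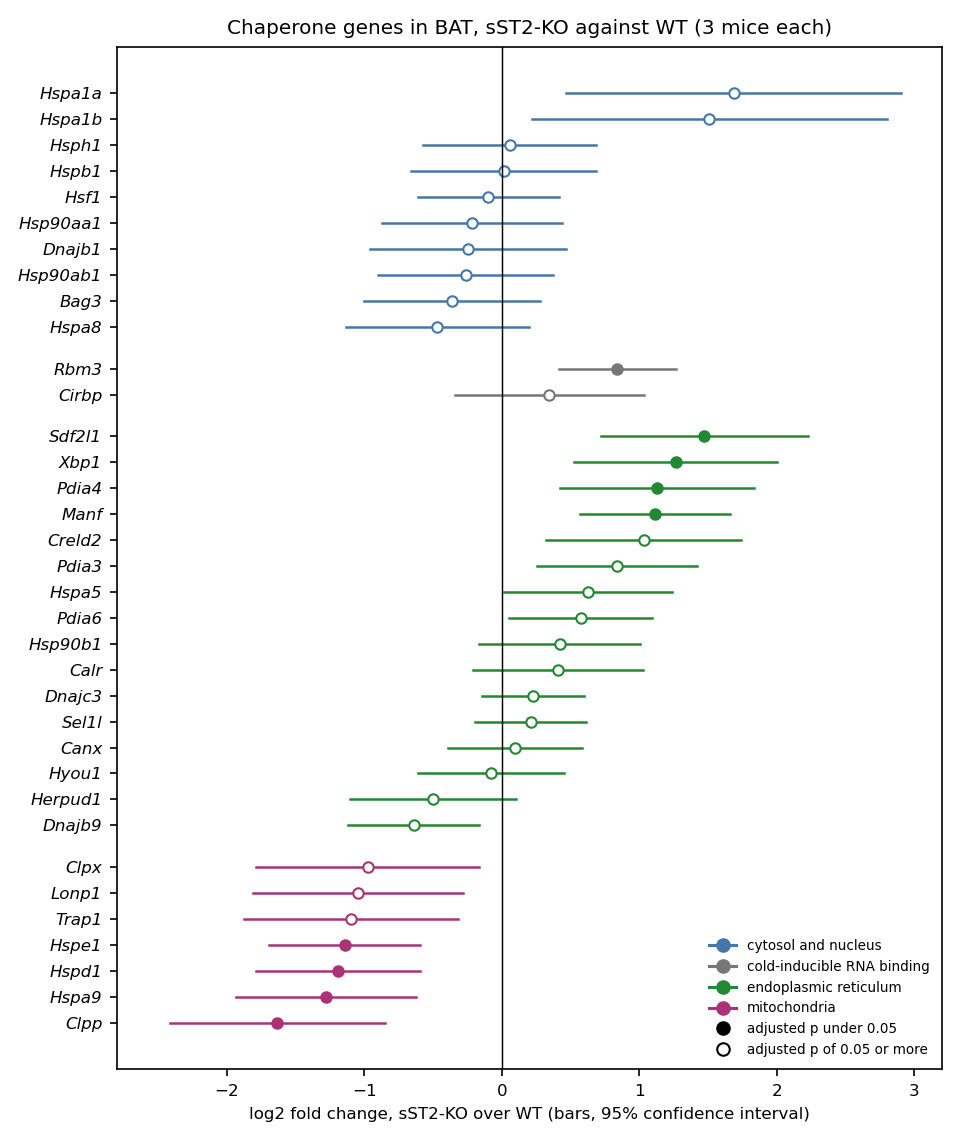
Log2 fold change of each of the 35 genes, sST2-KO over WT, with its 95% confidence interval from edgeR's quasi-likelihood fit (3 mice per group), by compartment; filled points have an adjusted p under 0.05. The 7 mitochondrial genes lie between -1.63 and -0.98, the 16 ER genes between -0.64 and 1.47, and 8 of the 10 cytosolic genes between -0.47 and 0.06.

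These calls depended on single libraries. With WT replicate 3 left out no member was called by edgeR, when 0.384% of all genes were, although 15 members had an unadjusted p under 0.05, and with sST2-KO replicate 3 left out only Clpp was, beside 9.51% of all genes. Leaving out WT replicate 2 kept Sdf2l1 alone, beside 5.90% of all genes. Leaving out WT replicate 1, sST2-KO replicate 1 or sST2-KO replicate 2 gave 3, 8 and 1 members higher and 6, 2 and 4 lower, beside 16.1%, 17.1% and 13.3% of all genes in both directions together. Over these 6 fits the median ran from -0.25 to 0.07 for the cytosolic genes, from 0.34 to 0.65 for the ER genes and from -1.37 to -1.05 for the mitochondrial genes. Without both WT replicate 2 and sST2-KO replicate 3, a fit added after the data were seen, no member was called by edgeR while 6.18% of all genes were (12 members at an unadjusted p under 0.05), and the medians were 0.04, 0.59 and -1.05. DESeq2 called 9 members higher and 8 lower, beside 12.2% and 10.9% of its genes, and scaling by total counts gave 9 higher and 4 lower, beside 15.0% and 6.13%, with the median of all genes moved from 0.03 to 0.29.

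**Figure D2:**
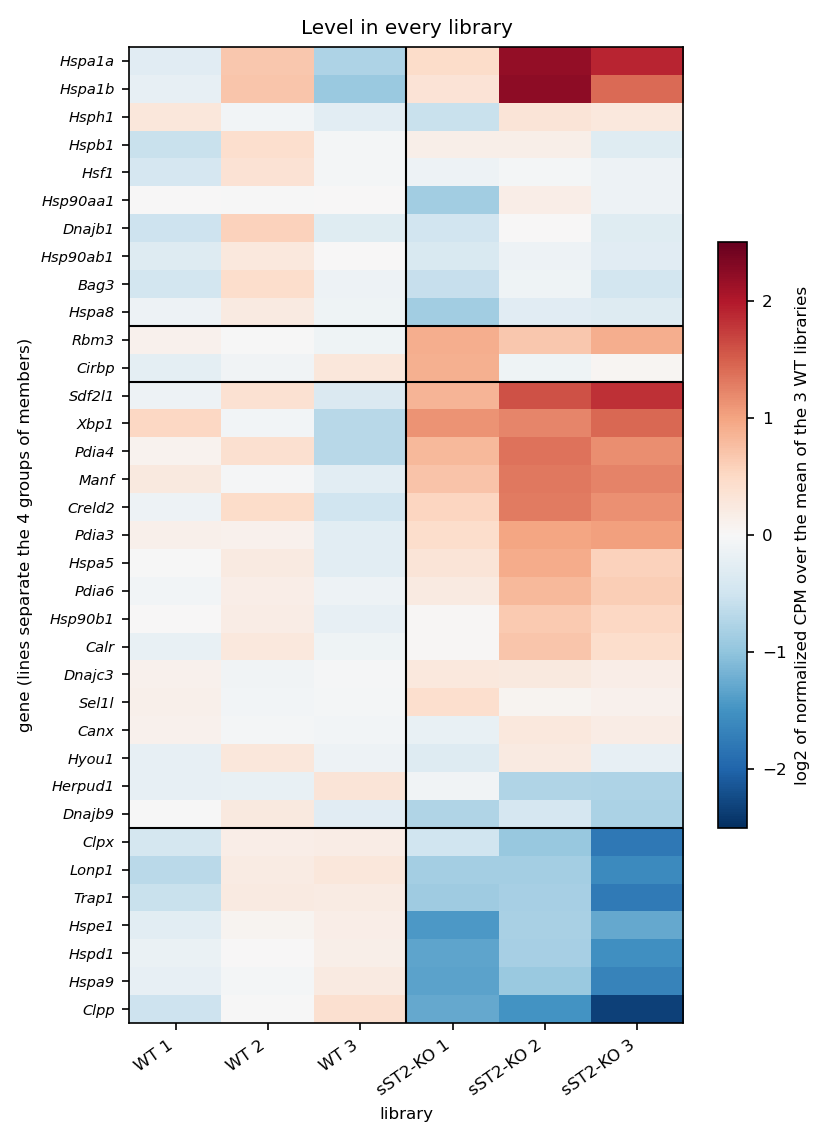
Log2 of the normalized CPM of each gene in each library over the mean of the 3 WT libraries (red above, blue below), with genes in rows grouped by compartment and libraries in columns. All 7 mitochondrial rows are blue in each sST2-KO library, and the darkest blue is that of Clpp in sST2-KO replicate 3.

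All 7 mitochondrial genes were lower in each sST2-KO library than in each WT library. Such a full separation downward was seen in 19.7% of all genes tested, and upward in 21.8%. The test called 4 of the 7, each with a fold change over 2, as it did 7.10% of all genes in this direction. Hspa9 encodes mortalin, the mitochondrial HSP70, which pulls proteins through the import channel and starts their folding. Its level was 839, 933 and 1122 normalized CPM in WT and 381, 508 and 302 in sST2-KO. The lowest WT library was thus well above the highest sST2-KO library, and the log2 fold change was -1.28 (SE 0.28; edgeR adjusted p = 0.0232), a 2.43-fold lower mean.

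Hspd1, the barrel-shaped chaperonin HSP60, was at 473, 536 and 584 normalized CPM in WT and at 212, 301 and 184 in sST2-KO. Hspe1, the HSP10 lid that closes the barrel, was at 171, 218 and 231 in WT and at 76.8, 118 and 85.3 in sST2-KO. Both genes were highest in sST2-KO replicate 2 within their group, and neither overlapped between groups. The log2 fold changes were -1.19 for Hspd1 (SE 0.26; edgeR adjusted p = 0.0220) and -1.14 for Hspe1 (SE 0.24; edgeR adjusted p = 0.0203). The ratio of the pair did not separate the groups, with 2.77, 2.46 and 2.53 counts of Hspd1 per count of Hspe1 in WT and 2.76, 2.55 and 2.16 in sST2-KO. The canonical transcripts of the pair do not overlap, but the full annotated extent of Hspd1 reaches into Hspe1 on the opposite strand. The same holds for a gene of the table beside 11 of the 35 genes (Hsf1, Hsp90ab1, Rbm3, Hspa5, Pdia3, Pdia6, Xbp1, Hspe1, Trap1, Lonp1 and Clpp), and whether the counting used strand is not given in the sources used here.

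Clpp showed the largest fall of the 35 genes. It encodes the proteolytic core of the CLPXP protease, and lies on chromosome 17 from 57296971 to 57303369. Its level was 72.3, 103 and 136 normalized CPM in WT and 42.6, 36.9 and 20.5 in sST2-KO, a log2 fold change of -1.63 (SE 0.34; edgeR adjusted p = 0.0202). Clpx, the ATPase that unfolds substrates and feeds them to CLPP, was at 157, 240 and 243 in WT and at 151, 111 and 62.0 in sST2-KO and did not pass the test (log2 fold change -0.98, SE 0.35; edgeR adjusted p = 0.0862). The groups of Clpx nearly met, with 157 in WT replicate 1 against 151 in sST2-KO replicate 1. The Clpp count per Clpx count was 0.462, 0.428 and 0.560 in WT and 0.282, 0.332 and 0.331 in sST2-KO, so the core was lower beside its unfoldase in every sST2-KO library.

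Lonp1, the main protease of the mitochondrial matrix, was at 146, 269 and 285 normalized CPM in WT and at 130, 130 and 77.7 in sST2-KO. Trap1, the mitochondrial HSP90, had 318 ± 88.5 in WT and 149 ± 48.1 in sST2-KO (SD, n = 3). Neither reached the threshold, with log2 fold changes of -1.05 (SE 0.33; edgeR adjusted p = 0.0604) and -1.10 (SE 0.33; edgeR adjusted p = 0.0559). WT replicate 1 was the lowest WT library for both genes, and both passed when it was left out, with adjusted p-values of 0.0351 and 0.0449. Lonp1 overlaps Rpl36, a ribosomal protein gene at 141 to 339 normalized CPM, on the opposite strand. DESeq2 called all 7 mitochondrial genes lower.

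Further mitochondrial chaperones and proteases were read from a list of 19 genes outside the set. None was called higher and 10 were called lower, beside 10.5% and 9.10% of all genes tested, and their median was -1.04 on the log2 scale. The largest falls among the called genes were those of Phb (prohibitin, a scaffold of the inner membrane), Grpel1 (the exchange factor of mortalin) and Dnajc15 (a J protein of the import motor), with log2 fold changes of -1.69, -1.51 and -1.47 and edgeR adjusted p-values of 0.0148, 0.0177 and 0.0186. Of 66 nuclear genes of the respiratory chain 65 were called lower, with a median of -1.79. Brown adipocyte markers and Ucp1 were lower in the same libraries, as given above, and their part in the fall of the mitochondrial chaperones was not tested.

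Relative to the respiratory chain, counts of the 7 mitochondrial genes were higher in sST2-KO, although both sums were lower there. Their summed counts came to 6.76%, 6.86% and 5.19% of those of the 66 respiratory chain genes in WT and to 9.02%, 9.58% and 9.96% in sST2-KO. The groups did not overlap, and the mean log2 value was 0.61 higher in sST2-KO. For a single value in 2 groups of 3, the smallest p of the exact permutation test (two-sided) is 0.1, so none of the ratios within a library could pass 0.05. Over the 6 fits without 1 library the value ran from 0.48 to 0.68.

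The ER group lay mostly in the other direction. Of its 16 genes 4 rose, each over 2-fold, and none fell. Of all genes tested, 9.04% rose by more than 2-fold under the same test. In 9 genes each sST2-KO library was above each WT library, and in 1, Dnajb9, each was below. Such full separation was seen upward in 21.8% and downward in 19.7% of all genes tested.

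Xbp1, the transcription factor of the IRE1 branch, which drives ER expansion in secretory cells, was at 173, 116 and 74.7 normalized CPM in WT and at 263, 284 and 326 in sST2-KO. The sST2-KO libraries lay close together while the WT libraries spread more than 2-fold, and the log2 fold change was 1.26 (SE 0.32; edgeR adjusted p = 0.0330). Counts per gene do not separate the spliced from the unspliced form of Xbp1. It lies on chromosome 11 from 5470654 to 5475874, where Ccdc117 overlaps it on the opposite strand. Plasma cells and B cells are rich in Xbp1, and of their 10 markers 6 were tested: Jchain and Prdm1 were called higher and Irf4, which brown adipocytes express too, was called lower. Summed over the 10 markers, the level was 156, 237 and 1425 normalized CPM in WT and 76.9, 102 and 101 in sST2-KO. The part of plasma cells and B cells in the rise of Xbp1 was not tested.

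Sdf2l1, a partner of the ER HSP70, showed the largest rise of the group. Its level was 8.96, 12.8 and 7.64 normalized CPM in WT and 17.6, 29.5 and 34.8 in sST2-KO, a log2 fold change of 1.47 (SE 0.32; edgeR adjusted p = 0.0238). Manf, a small secreted protein released under ER stress, was at 70.5, 58.2 and 49.7 in WT and at 97.4, 149 and 140 in sST2-KO. Its log2 fold change was 1.11 (SE 0.23; edgeR adjusted p = 0.0209), and it shares part of its span with Rbm15b on the same strand, where reads can be ambiguous. Pdia4, a protein disulfide isomerase, was at 68.1, 84.5 and 39.3 in WT and at 112, 164 and 143 in sST2-KO, a log2 fold change of 1.13 (SE 0.30; edgeR adjusted p = 0.0402). In all 3 genes the lowest sST2-KO library was replicate 1 and the lowest WT library was replicate 3.

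The major ER chaperones differed less between the groups. Hspa5 encodes BiP (GRP78), the ER HSP70, and is the most used marker of the unfolded protein response. It was at 477, 566 and 403 normalized CPM in WT and at 602, 914 and 716 in sST2-KO. No library crossed between groups, but the mean was only 1.54-fold higher and the difference did not pass (log2 fold change 0.63, 95% confidence interval 0.02 to 1.24; edgeR adjusted p = 0.130). Hsp90b1, the ER HSP90 (GRP94), was at 407, 456 and 348 in WT and at 410, 634 and 575 in sST2-KO. Here sST2-KO replicate 1 lay within the WT range, and the log2 fold change was 0.42 (SE 0.25; edgeR adjusted p = 0.273).

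Pdia3 and Creld2 came close to the threshold. Pdia3, the disulfide isomerase that works with the lectin chaperones, had 257 ± 38.3 normalized CPM in WT and 459 ± 97.6 in sST2-KO (SD, n = 3; edgeR adjusted p = 0.0539). Creld2, a secreted ER stress target, had 22.9 ± 7.84 and 46.9 ± 12.1 (SD, n = 3; edgeR adjusted p = 0.0513). Both passed under DESeq2, with adjusted p-values of 0.0111 and 0.0214. Pdia6, another disulfide isomerase, was 1.49-fold higher in its mean without overlap (edgeR adjusted p = 0.109).

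The lectin chaperones that hold glycoproteins, Calr and Canx, had log2 fold changes of 0.41 and 0.09 and overlapped between groups. So did Hyou1 (GRP170, an exchange factor of BiP) at -0.08 and Sel1l (the adaptor of the degradation ligase) at 0.21. Dnajc3, a BiP cochaperone that also inhibits eIF2α kinases, was at 82.6 ± 6.09 normalized CPM in WT and 96.8 ± 3.16 in sST2-KO (SD, n = 3). Its groups did not overlap although the means were only 1.17-fold apart (edgeR adjusted p = 0.341).

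Against this direction stood Dnajb9 and Herpud1. Dnajb9 (ERdj4), a BiP cochaperone and a target of XBP1, had 85.0 ± 15.4 normalized CPM in WT and 54.5 ± 7.89 in sST2-KO (SD, n = 3). Every sST2-KO library was below every WT library, with a log2 fold change of -0.64 (SE 0.20; edgeR adjusted p = 0.0638; DESeq2 adjusted p = 0.0365). Herpud1, a membrane protein of ER-associated degradation, was at -0.50 (SE 0.26; edgeR adjusted p = 0.208) with overlap. The 4 called ER genes thus stood beside 3 with a negative log2 fold change, Hyou1 being the other.

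The ERSE was set beside the changes as a description, with no test. Of the 4 ER genes called, Sdf2l1, Xbp1 and Pdia4 had a window, and none of the 3 held the element. The 7 genes with it had log2 fold changes from 0.09 (Canx) to 1.03 (Creld2), all positive, and none passed edgeR's test. Creld2 was just short of it (adjusted p = 0.0513) and passed under DESeq2, total counts, both other filters and robust estimation, and Pdia6 passed under total counts (edgeR adjusted p = 0.0390). A missing match says only that these letters are not in the 300 bases searched.

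**Figure D3:**
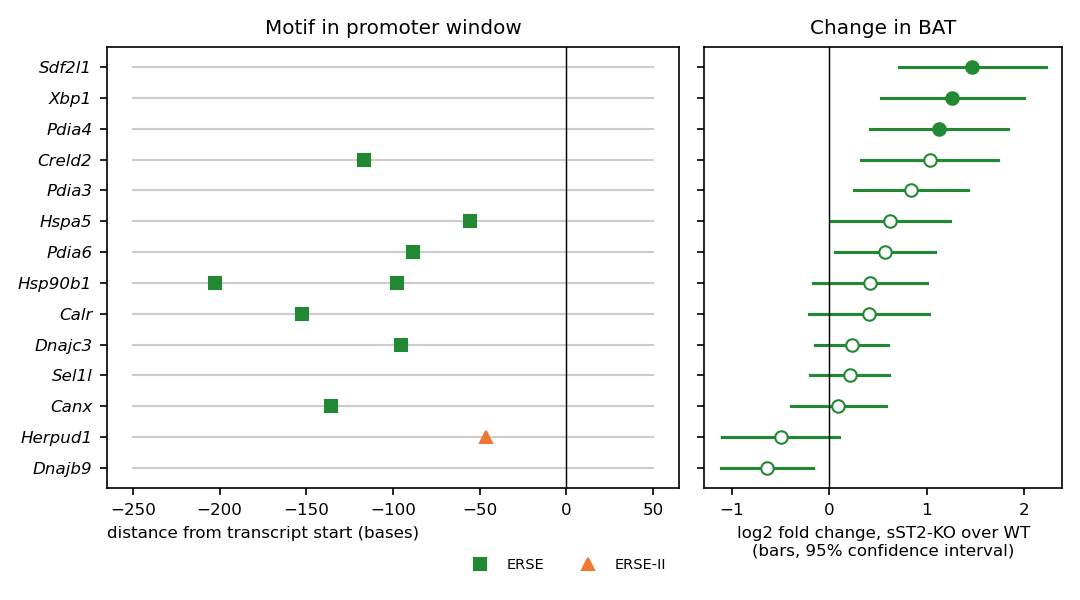
Left, position of the ERSE (squares) and ERSE-II (triangle) in the promoter windows of the 14 ER genes that had one, in bases from the transcript start. Right, log2 fold change of the same genes, sST2-KO over WT, with its 95% confidence interval; filled points have an adjusted p under 0.05. The 3 filled genes, Sdf2l1, Xbp1 and Pdia4, have no match in their windows, and Herpud1, with the ERSE-II, lies at -0.50.

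Other genes of ER folding and degradation were read from a list of 42. Of these 2 were called higher and none lower, beside 10.5% and 9.10% of all genes tested. The list was thus not called more often than genes at large, and its median was 0.22 on the log2 scale. The 2 called were Dnajb11, a cochaperone of BiP, and Edem1, which extracts misfolded glycoproteins for degradation. Their log2 fold changes were 0.87 and 0.78, with edgeR adjusted p-values of 0.0261 and 0.0426. Of the 3 sensors that start the response, Atf6 was at -0.15, Ern1 (IRE1) at 0.01 and Eif2ak3 (PERK) at 0.31, and none was called. In the integrated stress response list of 10 genes, 1 was called higher and 1 lower, near the 10.5% and 9.10% of all genes tested. Its log2 fold changes had a median of -0.52 and ran up to 4.21, in a gene that was not called. Chac1, a glutathione-degrading enzyme, was called higher (log2 fold change 1.64; edgeR adjusted p = 0.0238). Atf5, a transcription factor of the mitochondrial stress response, was called lower (log2 fold change -2.15; edgeR adjusted p = 0.0136). The PERK targets Atf4 and Ddit3 overlapped between groups, at -0.30 and 0.30.

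No cytosolic heat shock gene passed edgeR's test. At an unadjusted p under 0.05, 2 of the 10 were higher and none lower, beside 19.6% and 16.7% of all genes, and DESeq2 called the same 2. These were Hspa1a and Hspa1b, the inducible HSP70 genes that heat or stress switches on. Hspa1a was at 6.53, 12.6 and 4.68 normalized CPM in WT and at 10.9, 36.7 and 29.7 in sST2-KO. Hspa1b was at 6.90, 12.8 and 4.19 in WT and at 10.04, 37.5 and 21.1 in sST2-KO.

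In both genes sST2-KO replicates 2 and 3 were above all WT libraries, whereas sST2-KO replicate 1 lay below WT replicate 2. The log2 fold changes were 1.69 for Hspa1a (SE 0.52; edgeR adjusted p = 0.0591) and 1.51 for Hspa1b (SE 0.56; edgeR adjusted p = 0.0940). Without sST2-KO replicate 1 they were 2.05 and 1.87 with adjusted p-values of 0.0300 and 0.0468. The 2 genes are single-exon neighbors on chromosome 17, at 35188166 to 35191132 and 35175412 to 35178214, both on the minus strand. Their coding parts were 99.6% identical over the aligned bases, with 8 differences, so many reads fit both copies. How such reads were counted, or whether they were left out, is not given in the sources used here. The level of each gene and the split between them are thus uncertain. Of 10 immediate early genes, which handling of tissue also induces, 6 were called higher, and their sum was 743 to 1526 normalized CPM in WT and 2519 to 2839 in sST2-KO. The part of such induction in the Hspa1a and Hspa1b values was not tested.

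Hsf1, the master regulator of the heat shock response, was at 29.7, 50.9 and 38.1 normalized CPM in WT and at 36.3, 38.1 and 36.2 in sST2-KO. The sST2-KO values all lay inside the WT range, and the log2 fold change was -0.10 (95% confidence interval -0.61 to 0.41). Hspa8 encodes HSC70, the constitutive HSP70 that does most of the daily folding work. It was at 1819, 2325 and 1854 in WT and at 1101, 1636 and 1594 in sST2-KO, below WT in each library yet not called (log2 fold change -0.47, SE 0.29; edgeR adjusted p = 0.279). Hsp90aa1, the inducible cytosolic HSP90, was nearly constant in WT, at 309, 305 and 309, and spread from 169 to 343 in sST2-KO, with 169, 343 and 281 (log2 fold change -0.22; edgeR adjusted p = 0.613).

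The other heat shock genes overlapped between groups. Hsp90ab1, the constitutive HSP90, had a log2 fold change of -0.26, and Dnajb1, the HSP40 partner of HSP70, had -0.25. Bag3, a cochaperone that sends clients to autophagy, was at -0.36, Hsph1 (HSP110, an exchange factor) at 0.06, and the small heat shock protein gene Hspb1 at 0.01. The 95% confidence interval of each included 0. Hspa1a and Hspa1b were the only genes of the 10 with a log2 fold change above 0.06.

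Of 37 other cytosolic chaperones and cochaperones, 3 were called higher and 2 lower, beside 10.5% and 9.10% of all genes tested. The list was thus not called more often than genes at large, and its median was -0.04 on the log2 scale. The rises were Hspb6, Cryab and Hspa14, at 2.36, 1.95 and 0.70 (edgeR adjusted p = 0.0282, 0.0378 and 0.0344). Hspb6 and Cryab are small heat shock proteins abundant in striated muscle. Hspb6 was at 32.9, 13.7 and 12.3 normalized CPM in WT and at 98.3, 43.8 and 160 in sST2-KO, and the skeletal muscle list summed to 1250, 20.8 and 6.41 and to 6507, 3479 and 14955 in the same libraries. Its highest libraries in each group were those with most muscle transcript, and the part of muscle was not tested. The falls were Hspa4l, an HSP110 relative, at -1.06, and Stub1 (CHIP), the ligase that marks chaperone clients for degradation, at -0.78 (edgeR adjusted p = 0.0154 and 0.0276).

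Rbm3, an RNA-binding protein whose transcript is induced by mild cold, rose in sST2-KO BAT. It was at 137, 127 and 118 normalized CPM in WT and at 238, 204 and 239 in sST2-KO, with the libraries of each group close together. The log2 fold change was 0.84 (SE 0.18; edgeR adjusted p = 0.0232), which is under 2-fold. Rbm3 lies on chromosome X from 8005224 to 8012119 on the minus strand, where Rbm3os overlaps it on the other strand, and unstranded counting would not separate them. Rbm3os was called higher too (log2 fold change 0.64; edgeR adjusted p = 0.0447). Cirbp, the other cold-inducible RNA-binding protein of the set, was at 39.6, 43.7 and 57.0 in WT and at 86.0, 43.2 and 48.4 in sST2-KO. Only sST2-KO replicate 1 stood above the rest, and the log2 fold change was 0.34 (SE 0.30; edgeR adjusted p = 0.441). The paper reports that denervated sST2-KO mice had a lower core body temperature than WT mice under the same cold exposure. Whether the tissue temperature differed between the groups is not in the data used here. The part of temperature in the rise of Rbm3 was not tested.

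**Figure D4:**
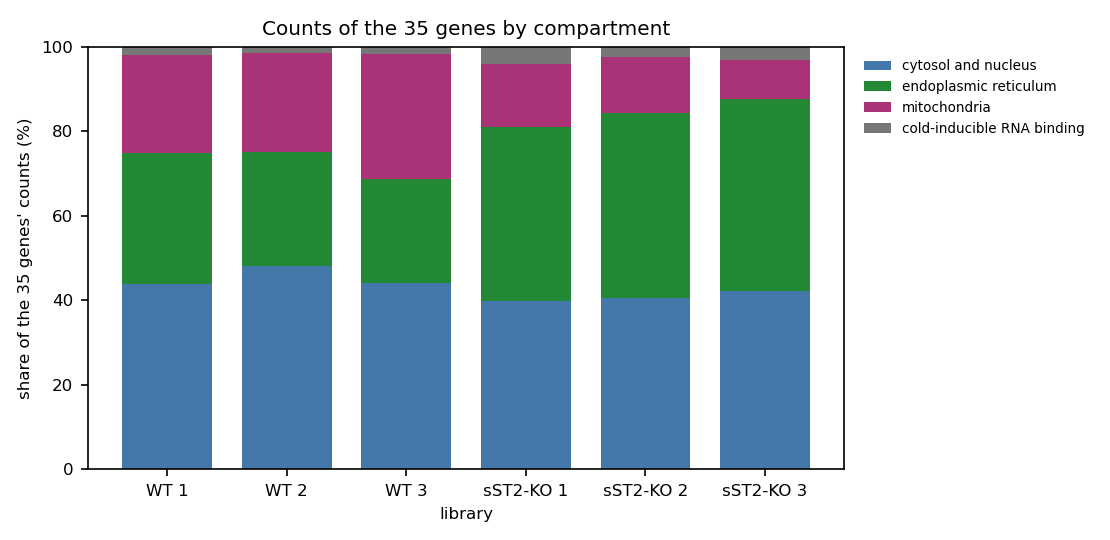
Share of the 35 genes' counts held by each group of genes in each library, in percent (bars stack to 100%). The mitochondrial share is 23.1% to 29.6% in WT and 9.15% to 14.9% in sST2-KO, and the ER share is 24.5% to 31.2% in WT and 41.2% to 45.4% in sST2-KO.

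A share within the 35 genes does not depend on how libraries are scaled. The ER group held 31.2%, 27.0% and 24.5% of the 35 genes' counts in WT and 41.2%, 43.8% and 45.4% in sST2-KO. The mitochondrial group went from 23.1%, 23.4% and 29.6% to 14.9%, 13.3% and 9.15%. The cytosolic group differed less, from 43.8%, 48.1% and 44.2% to 39.8%, 40.6% and 42.3%. In none of these 3 groups did the ranges of WT and sST2-KO overlap, and a gain of 1 share must lower another.

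The same counts were also set beside each other within families whose members sit in different compartments, so these ratios are not a separate result. For each count of the cytosolic HSP70 gene Hspa8 there were 0.262, 0.243 and 0.217 counts of the ER HSP70 gene Hspa5 in WT and 0.547, 0.558 and 0.449 in sST2-KO. The mitochondrial HSP70 gene Hspa9 had 0.461, 0.402 and 0.605 counts per count of Hspa8 in WT and 0.346, 0.311 and 0.189 in sST2-KO. The ER form was thus higher and the mitochondrial form lower beside the cytosolic form in every sST2-KO library. Between the organelle forms the change was largest, which follows from the ratios above. There were 1.76, 1.65 and 2.79 counts of Hspa9 per count of Hspa5 in WT and 0.633, 0.556 and 0.422 in sST2-KO. In the HSP90 family Hsp90b1 had 0.300, 0.223 and 0.204 counts per count of Hsp90ab1 in WT and 0.315, 0.408 and 0.412 in sST2-KO, again without overlap. These ratios use counts not divided by gene length, so they compare libraries and not the abundance of the forms.

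**Figure D5:**
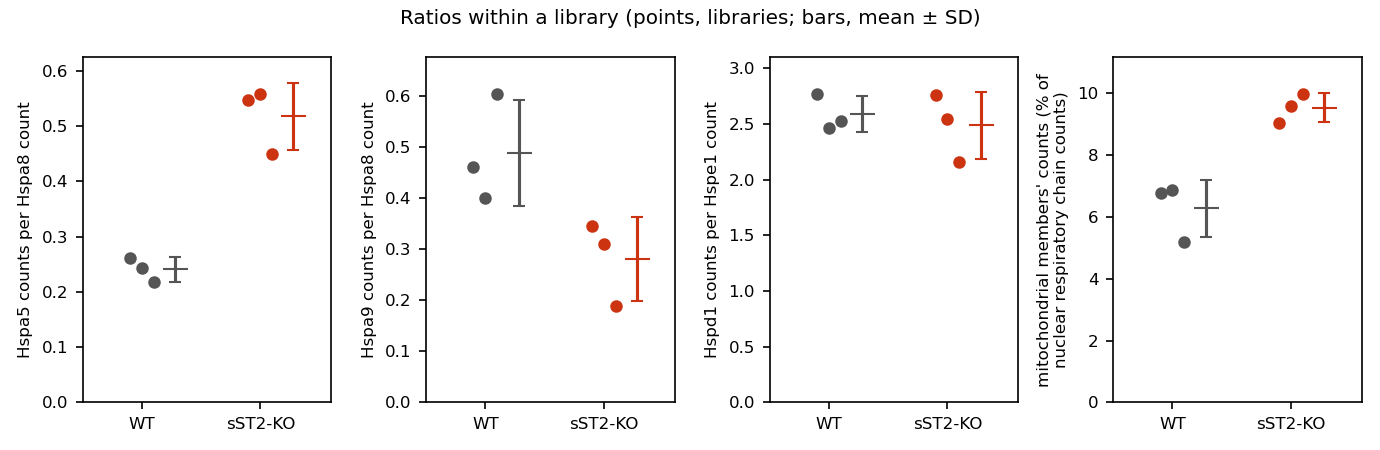
Ratios of counts within a library for WT and sST2-KO (points are libraries, bars are mean ± SD of 3): Hspa5 per Hspa8, Hspa9 per Hspa8, Hspd1 per Hspe1, and the 7 mitochondrial genes in percent of 66 respiratory chain genes. The groups separate for Hspa5 per Hspa8, Hspa9 per Hspa8 and the percentage, and overlap for Hspd1 per Hspe1, at 2.46 to 2.77 in WT and 2.16 to 2.76 in sST2-KO.

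Divided by exon length, the levels of the set spanned a wide range. In WT the highest was Hspa8, at 835 normalized CPM per kb, followed by Hsp90ab1 at 630, Hspa9 at 285, Hspb1 at 270 and Hspe1 at 267. In sST2-KO the order began with Hspa8 at 603 and Hsp90ab1 at 524, and then came Calr at 275 and Hspb1 at 272. Hspa9 stood at 117 and Hspe1 at 121 there, below Hsp90b1 at 191, Hspa5 at 150 and Xbp1 at 148. The lowest levels in WT were those of Hspa1a and Hspa1b, at 2.68 and 2.84, against 8.69 and 8.17 in sST2-KO, where Hsf1, at 7.18, was the lowest. Reads that fit both Hspa1a and Hspa1b may have been left out of the counts, so the place of these genes in the order is uncertain.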

How the data were processed

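The deposited counts per gene symbol were made by the authors from poly-A-selected, paired-end libraries aligned to mm39 with HISAT2 2.2.1 and counted with htseq-count, without normalization. The use of strand is not given in the sources used here. 0 columns were left unused. Genes were kept by edgeR's filterByExpr (14542 tested), libraries were scaled by TMM, and sST2-KO was compared with WT by the quasi-likelihood test (edgeR 4.0.16, R 4.3.3) with Benjamini-Hochberg adjustment and a threshold of 0.05. Normalized CPM are edgeR's CPM on TMM-scaled library sizes. The standard error is the size of the log2 fold change over the square root of F. Beyond being 3 mice a group, nothing more is said of the replicates than their numbers. The p-values set the group difference against the spread between these 3 samples a group, moderated across the genes tested. Within a group, counts of any pair of libraries differed beyond sampling noise (chi-square over degrees of freedom from 36.6 to 104). Every member was named, by a fixed rule with all libraries' values for chosen and called members, and of each list of other pathway genes up to 3 rises and 3 falls that were called. Sensors, stress response genes and Ucp1 were named outside it, after their values were seen. The members and lists were chosen with earlier results of these data known. The alternatives tried were other filters, DESeq2 1.42.0, total counts, RLE factors, robust estimation, a replicate block and libraries left out. Positions and exon lengths are those of canonical GENCODE transcripts on GRCm39. Older symbols matched 4 genes. The fitting steps were tested on simulated data. Figures were drawn with matplotlib 3.10.9.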

Additional observations from a re-analysis of the deposited data

How the results depend on the processing

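The calls moved with the tool, the scaling and the libraries more than the directions did. DESeq2 called 9 members higher and 8 lower, and all 9 called by edgeR were among them. Total counts called 9 higher and raised the ER median log2 fold change to 0.75. With each library left out, 0 to 8 members were called higher and 0 to 6 lower. Without WT replicate 2 and sST2-KO replicate 3 both counts were 0. Between WT and sST2-KO libraries of the same replicate number, correlations of deviations were -0.07, 0.22 and -0.32. These 3 values of mixed sign neither show nor exclude a pairing. A fit with the replicate block called 0 members higher and 0 lower and 0 of all genes, while 4623 genes and 16 members had an unadjusted p under 0.05. RLE factors, no filter, at least 10 counts in every library and robust estimation called 5 to 7 higher and 4 lower. In the same order, these fits called 19.5%, 12%, 19.6% and 19.7% of all their genes, both directions together. Requiring a fold change above 2 left 4 and 4, beside 16.1% of all genes in both directions together.

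Members that changed sign were not called in any of these fits. Hspb1 was at -0.0090 with DESeq2 and -0.0082 with RLE factors. With total counts, Hsf1 was at 0.17, Hsp90aa1 at 0.032, Hsp90ab1 at 0.00087, Dnajb1 at 0.011 and Hyou1 at 0.17. Without both libraries, Hsf1 was at 0.13, Dnajb1 at 0.18, Hsph1 at -0.094 and Hyou1 at 0.14. With each library left out, Hsf1 ran from -0.28 to 0.12, Hsp90aa1 from -0.47 to 0.021, Dnajb1 from -0.45 to 0.16, Hsph1 from -0.11 to 0.29, Hspb1 from -0.20 to 0.28, Cirbp from -0.029 to 0.50, Canx from -0.016 to 0.22 and Hyou1 from -0.29 to 0.084. The cause was not tested. With 3 libraries a group and a common biological coefficient of variation of 0.325, intervals of members with few counts, such as Hspa1a, were wide.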
